A study of Mus musculus with 17 samples.

Results

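The 35 genes described here code for lysosomal proteins and proteases: membrane proteins, cathepsins and other proteases, a protease inhibitor, glycosidases, sulfatases, lipid enzymes and carriers, and 2 regulators. They were taken from a list of gene symbols that was chosen, like the other lists below, with earlier results of these data known. Counts of members above the share of all genes are therefore a description and not an independent test. Each member was represented by the probe set that names that gene alone, or by the one with the highest mean over all arrays where several did. All 35 had such a probe set, out of 19938 genes measured in the same way on 17 arrays of mouse pancreatic islets.

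The islets came from untreated mice 2 months old, and the arrays fall into 5 genotype groups. The controls were 3 wt arrays and 3 RIP-Cre arrays. RIP-Cre is a transgene in which the rat insulin promoter drives Cre, a recombinase, so that beta cells lose floxed alleles (written flf in the labels), while the other cells of the islet keep them. The 3 Men1 RIP-Cre arrays (Men1flf alleles), 4 Rbp2 RIP-Cre arrays (Rbp2flf alleles) and 4 Men1 Rbp2 RIP-Cre arrays (both pairs of alleles, called the double mutant here, and double knockout or double in the plots) all carry the same transgene as the RIP-Cre group, which was therefore their control. Men1 codes for menin, an endocrine tumour suppressor that works with enzymes placing an activating methyl mark on histone H3, and Rbp2, now named Kdm5a, codes for an enzyme that removes this mark. At issue is what the loss of each gene did to the lysosomal genes, and whether the changes of the single knockouts added up in the double mutant. The sample titles call the arrays of one group repeats without saying that they are separate animals, so a p-value here measures only the spread between these arrays.

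Lysosomes are acidic organelles that break down proteins, glycans and lipids with hydrolases made in the secretory pathway. The transcription factor Tfeb and its relatives bind a sequence with an E-box core, known as the CLEAR element, upstream of many lysosomal genes and raise their transcription. In beta cells lysosomes also take up insulin granules that are not secreted, a route called crinophagy.

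Because Tfeb is one of the 35 genes, the 250 bases before and 50 bases after the start sites of the members were searched in RefSeq sequence of build GRCm38.p6. Windows were found for 30 of the 35 genes. The E-box core CACGTG, which reads the same on both strands, was in the windows of 12 of the 30 genes (40%), against 8.09% of 27025 genes with such windows. Its longer form TCACGTGA, which contains the core, was in 4 of the 30 (13.3%, against 1.12% of all genes). The still longer GTCACGTGAC, the full palindrome of the CLEAR element, was in none of the 30 (0.37% of all genes). A core alone is not the full element. The 4 genes with the longer form are shown first, each by 30 bases around 1 match in capitals (Ctsa and Gla hold 2), since 2 of them (Ctsd and Gla) rose in every knockout group, Ctsa was called in the double mutant alone, and Mcoln1 was not called in any.
Ctsd, chr7:142387908-142387937, minus strand: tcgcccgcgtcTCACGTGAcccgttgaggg
Gla, chrX:134601215-134601244, minus strand: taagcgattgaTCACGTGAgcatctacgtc
Ctsa, chr2:164833749-164833778, plus strand: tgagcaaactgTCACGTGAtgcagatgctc
Mcoln1, chr8:3500462-3500491, plus strand: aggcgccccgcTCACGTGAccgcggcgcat
The 250 bases before the start of Lamp1 are shown because they hold 4 E-box cores (capitals), more than in any other member.
Lamp1, chr8:13158911-13159160, plus strand: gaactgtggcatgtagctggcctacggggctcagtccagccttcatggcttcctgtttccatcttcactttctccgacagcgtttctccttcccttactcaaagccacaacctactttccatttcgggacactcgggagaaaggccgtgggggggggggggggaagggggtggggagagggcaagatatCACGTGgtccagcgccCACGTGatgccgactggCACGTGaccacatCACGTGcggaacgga
Those of Cd63 and Cst3, the members with the largest rises, hold no core and are shown in lower case throughout.
Cd63, chr10:128909095-128909344, plus strand: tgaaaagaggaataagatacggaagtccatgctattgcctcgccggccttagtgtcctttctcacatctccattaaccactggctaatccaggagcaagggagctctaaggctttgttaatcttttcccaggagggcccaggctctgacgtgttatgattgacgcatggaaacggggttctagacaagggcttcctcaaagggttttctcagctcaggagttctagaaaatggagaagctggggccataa
Cst3, chr2:148875513-148875762, minus strand: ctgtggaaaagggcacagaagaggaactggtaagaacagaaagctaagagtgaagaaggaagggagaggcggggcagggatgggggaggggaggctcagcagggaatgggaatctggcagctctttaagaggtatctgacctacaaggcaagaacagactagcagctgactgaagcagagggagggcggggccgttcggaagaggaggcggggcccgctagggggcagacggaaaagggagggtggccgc
Of the 12 genes with a core, 8 were higher in Men1 RIP-Cre islets, 6 in Rbp2 RIP-Cre islets and 8 in the double mutant, and of the 18 genes without one, 12, 12 and 13 were higher. A match is a description of these letters and not evidence that a factor binds there.

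The Men1 probe set read 8.14 to 8.43 in Men1 RIP-Cre and 8.46 to 8.87 in the double mutant, below the 6 controls (9.25 to 9.49) and Rbp2 RIP-Cre (10.05 to 10.24). Kdm5a read 8.95 to 9.50 over the 17 arrays and was not called in any comparison, so its probe set gives no check of the Rbp2 labels. All values are log2 intensities. The 75th percentile of the probe sets lay between 8.92 and 8.95 on every array, whereas the median over genes lay between 7.97 and 8.16 in the 6 controls and between 7.82 and 7.98 in the 11 knockouts. Dim probe sets were therefore lower and bright ones higher in the knockouts, a shift that bears on the members because 19 of the 35 lie among the brightest 10% of genes. For this reason each count of members against RIP-Cre is also given after cyclic loess normalization, which removes shifts that follow brightness, and with the array median held fixed as a covariate. Counts of other lists are also given after loess.

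Of the 35 lysosomal genes, 17 were higher in islets of all 3 knockout groups, and Cd63 and Cst3 had the largest rises in each group. The share of all genes higher in all 3 was not counted, but it cannot exceed the 6.7% called higher in Rbp2 RIP-Cre. In Men1 RIP-Cre, 23 of the 35 were called higher (adjusted p under 0.05, limma) and 1, Tfeb, was lower, where 15.7% of all genes were called higher and 37.8% lower. The median log2 fold change of the 35 was 0.58, against -0.23 over all genes. In Rbp2 RIP-Cre, 21 were higher and 0 lower, where 6.7% of all genes were called in each direction, and the medians were 0.40 and -0.13. In the double mutant, 25 were higher and 1, again Tfeb, was lower, where 13% of all genes were higher and 20.6% lower, and the medians were 0.50 and -0.15.

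**Figure D1:**
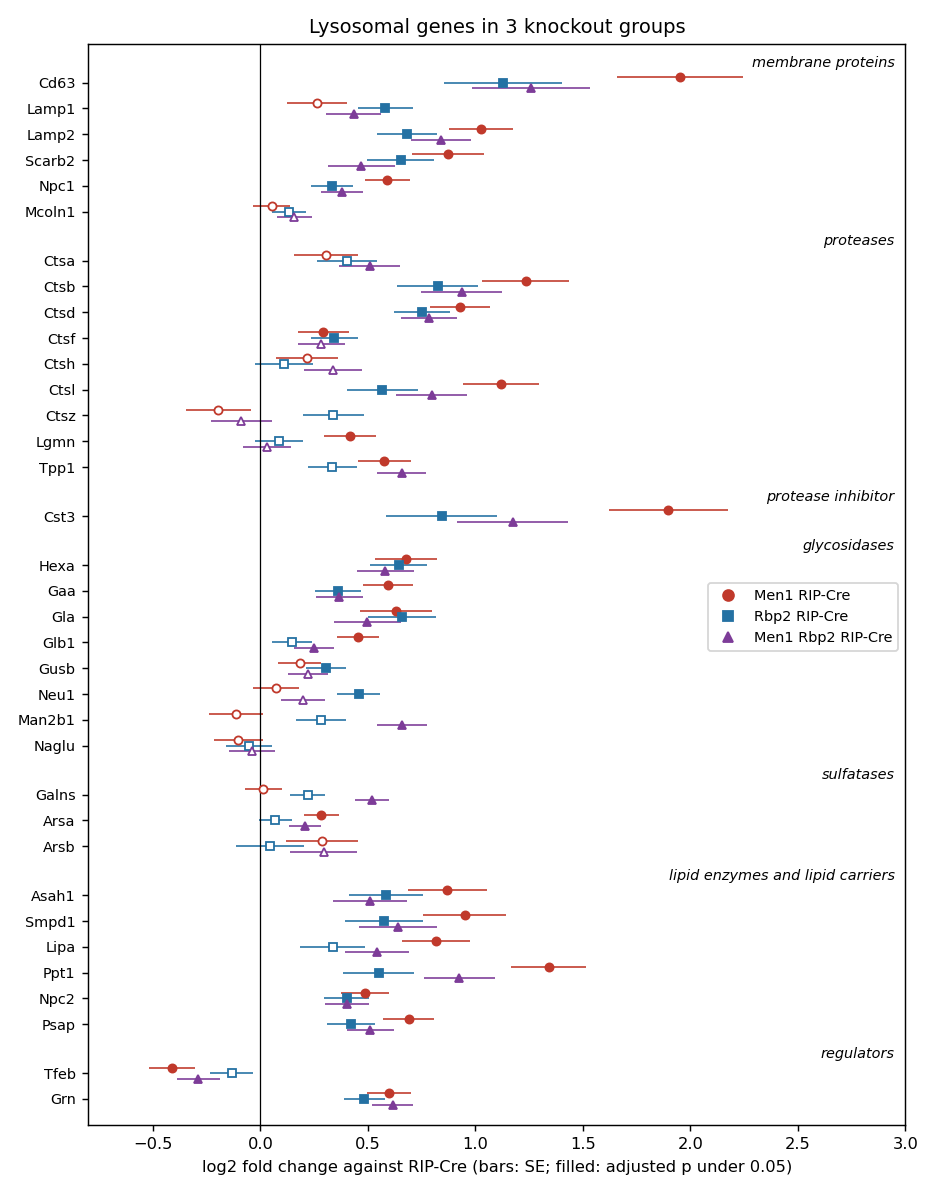
Log2 fold change against RIP-Cre (x axis) of each of the 35 lysosomal genes (y axis, grouped by role) in Men1 RIP-Cre (red circles, 3 arrays), Rbp2 RIP-Cre (blue squares, 4 arrays) and the double mutant (purple triangles, 4 arrays); bars are standard errors and filled symbols have an adjusted p under 0.05. Most symbols lie to the right of 0, Cd63 and Cst3 reach 1.95 and 1.90 in Men1 RIP-Cre, and Tfeb lies to the left.

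These counts depended on how the shift with brightness was handled. After cyclic loess, 24 members were higher and 1 lower in Men1 RIP-Cre (18.4% of all genes higher and 16% lower). In Rbp2 RIP-Cre islets 15 were higher and 0 lower (5.61% and 3.81%), and in the double mutant 21 and 0 (13.9% and 11.4%). Member medians were 0.43, 0.30 and 0.34 against -0.02, -0.01 and -0.01 over all genes. The loess values ended the call of Ctsl, Cst3, Gaa, Asah1, Smpd1, Ppt1 and Psap in Rbp2 RIP-Cre, and of Lamp1, Scarb2, Ctsa, Gaa, Asah1, Psap and Tfeb in the double mutant. With the array median held fixed, which also removes whatever part of a knockout's change goes with that median, 1 member was called higher in Men1 RIP-Cre (Ppt1, 1.06% of all genes), 0 in Rbp2 RIP-Cre islets (0.16% higher and 0.0502% lower; 17 members and 2497 genes at an unadjusted p under 0.05) and 2 in the double mutant (Galns and Grn, 0.863%). The member medians were then 0.35, 0.27 and 0.27, against -0.01, 0.00 and 0.00 over all genes. Single arrays also mattered. In Rbp2 RIP-Cre 2 members were called without RIP-Cre 3, 4 without Rbp2 RIP-Cre 1 and 11 without Rbp2 RIP-Cre 2. Member medians were 0.37, 0.37 and 0.41 in that order. In the double mutant 14 were called without RIP-Cre 3 and 17 each without double mutant 2 or 4. Their medians were 0.40, 0.38 and 0.44. The shares of all genes called in these runs were not counted. In Men1 RIP-Cre 23 or 24 were called whichever array was left out.

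Of the 6 membrane proteins, 4 were higher in Men1 RIP-Cre islets, 5 in Rbp2 RIP-Cre islets and 5 in the double mutant. Cd63, a tetraspanin of late endosomes, lysosomes and secretory granules, had the largest rise of all 35. Cd63 read 9.17, 9.92 and 8.66 in wt and 9.44, 9.33 and 9.17 in RIP-Cre. It read 11.04, 11.61 and 11.15 in Men1 RIP-Cre islets, 10.74, 10.32, 10.21 and 10.49 in Rbp2 RIP-Cre and 9.89, 11, 10.42 and 10.97 in the double mutant. Every knockout array except double mutant 1 lay above all 6 controls, the highest of which was wt 2. Cd63 rose on the log2 scale by 1.95 (SE 0.29, adjusted p = 0.000308) in Men1 RIP-Cre islets, 3.87-fold, by 1.13 (SE 0.27, adjusted p = 0.0229) in Rbp2 RIP-Cre and by 1.26 (SE 0.27, adjusted p = 0.00523) in the double mutant.

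Lamp2, a main glycoprotein of the lysosomal membrane and a receptor of chaperone-mediated autophagy, read 10.72, 10.93 and 10.65 in wt and 10.80, 10.74 and 10.89 in RIP-Cre. Lamp2 in the knockouts read 11.87, 11.78 and 11.86 in Men1 RIP-Cre islets, 11.75, 11.45, 11.23 and 11.53 in Rbp2 RIP-Cre and 11.36, 11.92, 11.45 and 11.87 in the double mutant. All 11 knockout arrays lay above all 6 controls. Lamp2 rose by 1.03 (SE 0.15, adjusted p = 0.000246), 0.68 (SE 0.14, adjusted p = 0.0144) and 0.84 (SE 0.14, adjusted p = 0.00168) in the same order of groups. Its relative Lamp1, whose upstream bases are shown above, had its highest mean in Rbp2 RIP-Cre, with 12.33, 12.18, 12.05 and 12.18 against 11.73, 11.65 and 11.43 in RIP-Cre. Lamp1 read 11.79, 11.97 and 11.84 in Men1 RIP-Cre and 12.06, 12.23, 11.78 and 12.08 in the double mutant. In wt it read 11.47, 11.81 and 11.27, so wt 2 lay above Men1 RIP-Cre 1 and double mutant 3. Lamp1 rose by 0.58 (SE 0.13, adjusted p = 0.0171) in Rbp2 RIP-Cre and 0.43 (SE 0.13, adjusted p = 0.0198) in the double mutant, and its difference of 0.26 (SE 0.14, adjusted p = 0.112) in Men1 RIP-Cre was not called.

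Scarb2, which carries glucocerebrosidase to the lysosome, read 9.16, 9.78 and 9.02 in wt and 9.52, 9.46 and 9.18 in RIP-Cre. Scarb2 in the knockouts read 10.39, 10.11 and 10.28 in Men1 RIP-Cre islets, 10.11, 10.07, 10.11 and 9.87 in Rbp2 RIP-Cre and 9.69, 10.12, 9.77 and 9.84 in the double mutant. The knockout arrays lay above the RIP-Cre arrays, but wt 2 overlapped the double mutant. Scarb2 rose by 0.87 (SE 0.17, adjusted p = 0.00123), 0.65 (SE 0.16, adjusted p = 0.0218) and 0.47 (SE 0.16, adjusted p = 0.0316). Npc1, the membrane protein that exports cholesterol from the lysosome, read 8.63, 8.79 and 8.71 in wt, 8.72, 8.57 and 8.42 in RIP-Cre, 9.25, 9.16 and 9.07 in Men1 RIP-Cre islets, 8.92, 8.95, 8.89 and 8.85 in Rbp2 RIP-Cre and 8.88, 9.19, 8.82 and 8.90 in the double mutant. All 11 knockout arrays lay above all 6 controls, by little in Rbp2 RIP-Cre and the double mutant. Npc1 rose by 0.59 (SE 0.10, adjusted p = 0.000820), 0.33 (SE 0.10, adjusted p = 0.0386) and 0.38 (SE 0.10, adjusted p = 0.0111). Mcoln1, a calcium-permeable channel of the lysosomal membrane, read 10.81 to 11.16 over the 17 arrays, overlapped between RIP-Cre and each knockout group, and was not called.

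Among the 9 proteases, 6 were higher in Men1 RIP-Cre islets, 4 in Rbp2 RIP-Cre islets and 5 in the double mutant, and none was lower. Ctsb, a cysteine cathepsin, read 10.06, 10.44 and 9.45 in wt and 9.98, 9.84 and 9.63 in RIP-Cre. Ctsb in the knockouts read 11.12, 10.92 and 11.11 in Men1 RIP-Cre islets, 10.92, 10.58, 10.47 and 10.60 in Rbp2 RIP-Cre and 10.67, 10.94, 10.43 and 10.97 in the double mutant. The groups did not overlap with RIP-Cre, while wt 2 reached into the double mutant. Ctsb rose by 1.23 (SE 0.20, adjusted p = 0.000507) in Men1 RIP-Cre islets, 0.83 (SE 0.19, adjusted p = 0.0191) in Rbp2 RIP-Cre and 0.94 (SE 0.19, adjusted p = 0.00370) in the double mutant.

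Ctsl, another cysteine cathepsin, read 9.58, 9.93 and 9.34 in wt and 9.78, 9.55 and 9.32 in RIP-Cre. Ctsl in the knockouts read 10.71, 10.40 and 10.90 in Men1 RIP-Cre islets, 10.30, 10.15, 10.10 and 9.92 in Rbp2 RIP-Cre and 10.15, 10.67, 10.16 and 10.41 in the double mutant. The Men1 RIP-Cre and double mutant arrays lay above all 6 controls, and Rbp2 RIP-Cre 4 fell just under wt 2. Ctsl rose by 1.12 (SE 0.18, adjusted p = 0.000413), 0.57 (SE 0.17, adjusted p = 0.0379) and 0.80 (SE 0.17, adjusted p = 0.00425). Ctsd, the main aspartic protease of lysosomes, read 9.79, 10.09 and 9.53 in wt, 9.96, 9.84 and 9.77 in RIP-Cre, 10.79, 10.65 and 10.91 in Men1 RIP-Cre islets, 10.58, 10.70, 10.71 and 10.44 in Rbp2 RIP-Cre and 10.54, 10.90, 10.45 and 10.68 in the double mutant. All 11 knockout arrays lay above all 6 controls. Ctsd rose by 0.93 (SE 0.14, adjusted p = 0.000310), 0.75 (SE 0.13, adjusted p = 0.00848) and 0.79 (SE 0.13, adjusted p = 0.00168).

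Ctsf, a cysteine cathepsin with a smaller change, read 8.89, 8.54 and 8.89 in wt, 8.83, 8.57 and 8.74 in RIP-Cre, 9.12, 9.10 and 8.80 in Men1 RIP-Cre islets, 9.11, 9, 9.11 and 9.01 in Rbp2 RIP-Cre and 9.11, 9.01, 8.82 and 9.05 in the double mutant. The Rbp2 RIP-Cre arrays lay above all controls, and the Men1 RIP-Cre and double mutant arrays overlapped both control groups. Ctsf was called in both single knockouts at the edge of the threshold, with 0.29 (SE 0.12, adjusted p = 0.0467) and 0.34 (SE 0.11, adjusted p = 0.0498), and was not called in the double mutant at 0.28 (SE 0.11, adjusted p = 0.0571). Tpp1, a tripeptidyl peptidase, rose by 0.58 (SE 0.12) in Men1 RIP-Cre and 0.66 (SE 0.11) in the double mutant, and read 0.34 in Rbp2 RIP-Cre, which was not called. Lgmn, the asparaginyl endopeptidase that matures several cathepsins, rose in Men1 RIP-Cre, by 0.42 (SE 0.12, adjusted p = 0.0102), and stood at 0.09 and 0.03 in the other groups. Ctsa, a carboxypeptidase that shields the sialidase Neu1 from breakdown, was called in the double mutant alone, at 0.51 (SE 0.14, adjusted p = 0.0145), with 0.31 and 0.40 in the single knockouts. The wt 1 array read 11.63 for Ctsa, above all other arrays, while the other 5 controls read 10.85 to 11.09. Ctsh and Ctsz, both cysteine cathepsins, were not called in any comparison with RIP-Cre, and Ctsz ran from -0.20 in Men1 RIP-Cre to 0.34 in Rbp2 RIP-Cre.

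Cst3, which codes for cystatin C, a secreted inhibitor of cysteine cathepsins, rose in all 3 groups, as did the cathepsins Ctsb, Ctsd and Ctsl. Cst3 read 10.87, 11.70 and 10.87 in wt and 11.32, 10.52 and 10.64 in RIP-Cre. It reached 12.84, 12.61 and 12.72 in Men1 RIP-Cre islets, and read 12.07, 11.77, 11.52 and 11.32 in Rbp2 RIP-Cre and 11.64, 12.51, 11.60 and 12.25 in the double mutant. The Men1 RIP-Cre arrays lay above all others, Rbp2 RIP-Cre 4 equalled RIP-Cre 1, and wt 2 overlapped the Rbp2 RIP-Cre and double mutant arrays. Cst3 rose by 1.90 (SE 0.28, adjusted p = 0.000252), 3.72-fold, in Men1 RIP-Cre islets, by 0.84 (SE 0.26, adjusted p = 0.0438) in Rbp2 RIP-Cre and by 1.17 (SE 0.26, adjusted p = 0.00553) in the double mutant. The spread between arrays of Cst3 in the double mutant, with repeats 2 and 4 high and repeats 1 and 3 low, was shared by many members and is taken up below.

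**Figure D2:**
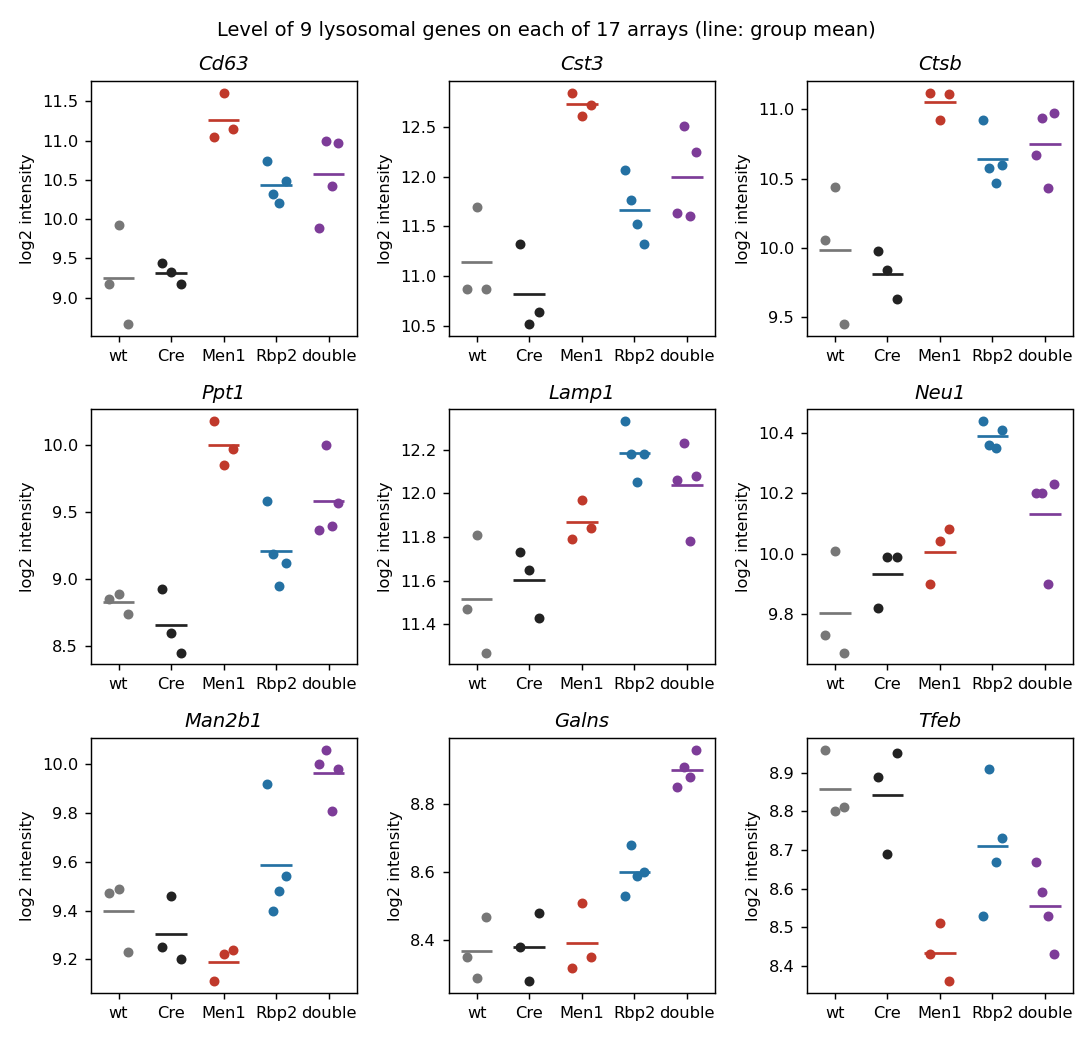
Log2 intensity (y axis) of 9 lysosomal genes on each of the 17 arrays, by group (x axis; wt, Cre for RIP-Cre, Men1, Rbp2 and double for the knockouts), with points for arrays and lines for group means. Cd63, Cst3, Ctsb and Ppt1 were highest in Men1 RIP-Cre islets, Lamp1 and Neu1 in Rbp2 RIP-Cre, Man2b1 and Galns in the double mutant, and Tfeb was lowest in Men1 RIP-Cre.

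The 8 glycosidases, which remove sugars from glycans and glycolipids, were mixed: 4 were higher in Men1 RIP-Cre islets, 5 in Rbp2 RIP-Cre islets and 5 in the double mutant. Hexa, the alpha subunit of the hexosaminidase that degrades a brain ganglioside, read 10.43, 10.81 and 10.22 in wt and 10.56, 10.56 and 10.22 in RIP-Cre. Hexa in the knockouts read 11.02, 11.22 and 11.13 in Men1 RIP-Cre islets, 11.27, 11.01, 10.94 and 11.14 in Rbp2 RIP-Cre and 10.95, 11.11, 10.88 and 11.17 in the double mutant. All 11 knockout arrays lay above all 6 controls. Hexa rose by 0.68 (SE 0.14, adjusted p = 0.00212), 0.64 (SE 0.13, adjusted p = 0.0146) and 0.58 (SE 0.13, adjusted p = 0.00665), by similar amounts in each group.

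Gaa, the acid glucosidase that degrades glycogen, read 10.36, 10.57 and 10.30 in wt, 10.53, 10.64 and 10.35 in RIP-Cre, 10.99, 11.18 and 11.13 in Men1 RIP-Cre islets, 10.84, 10.93, 11.01 and 10.69 in Rbp2 RIP-Cre and 10.84, 11.04, 10.68 and 10.93 in the double mutant. Again no knockout array overlapped a control. Gaa rose by 0.59 (SE 0.12, adjusted p = 0.00145), 0.36 (SE 0.11, adjusted p = 0.0417) and 0.37 (SE 0.11, adjusted p = 0.0203). Gla, the alpha-galactosidase 1 of whose upstream E-boxes is shown above, read 7.47, 7.62 and 7.11 in wt, 7.50, 7.24 and 7.13 in RIP-Cre, 8.06, 7.71 and 7.99 in Men1 RIP-Cre islets, 8.05, 7.80, 8.11 and 7.83 in Rbp2 RIP-Cre and 7.63, 8.09, 7.48 and 7.95 in the double mutant. Only double mutant 3 fell to the level of the controls. Gla rose by 0.63 (SE 0.17, adjusted p = 0.00710), 0.66 (SE 0.16, adjusted p = 0.0218) and 0.50 (SE 0.16, adjusted p = 0.0257).

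The remaining glycosidases each followed a pattern of their own. Glb1, the beta-galactosidase, rose by 0.45 (SE 0.10, adjusted p = 0.00258) in Men1 RIP-Cre islets and 0.25 (SE 0.09, adjusted p = 0.0484) in the double mutant, with 0.15 in Rbp2 RIP-Cre. Gusb, the beta-glucuronidase, was called only in Rbp2 RIP-Cre, at 0.31 (SE 0.09, adjusted p = 0.0426), with 0.18 and 0.22 in the other groups. Neu1, the sialidase, was also called only in Rbp2 RIP-Cre. Neu1 read 9.82, 9.99 and 9.99 in RIP-Cre, 9.90, 10.04 and 10.08 in Men1 RIP-Cre islets, 10.44, 10.36, 10.35 and 10.41 in Rbp2 RIP-Cre and 10.20, 10.20, 9.90 and 10.23 in the double mutant, which gave 0.46 (SE 0.10, adjusted p = 0.0171) in Rbp2 RIP-Cre, 0.07 in Men1 RIP-Cre and 0.20 in the double mutant. Its 4 Rbp2 RIP-Cre arrays were the highest of the 17. Naglu, which acts on heparan sulfate, overlapped between all groups and was not called.

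Man2b1, the lysosomal alpha-mannosidase, was higher in the double mutant than in Men1 RIP-Cre. Man2b1 read 9.47, 9.49 and 9.23 in wt, 9.25, 9.46 and 9.2 in RIP-Cre, 9.11, 9.22 and 9.24 in Men1 RIP-Cre islets, 9.92, 9.40, 9.48 and 9.54 in Rbp2 RIP-Cre and 10, 10.06, 9.81 and 9.98 in the double mutant. The double mutant arrays lay above every array but Rbp2 RIP-Cre 1, and the Men1 RIP-Cre arrays were within or below the controls. Man2b1 rose by 0.66 (SE 0.12, adjusted p = 0.00233) in the double mutant against RIP-Cre and by 0.77 (SE 0.12, adjusted p = 0.00200) against Men1 RIP-Cre, and was not called in Men1 RIP-Cre at -0.11 (SE 0.13, adjusted p = 0.448) or in Rbp2 RIP-Cre at 0.28 (SE 0.12, adjusted p = 0.0971). With the array median held fixed the difference from Men1 RIP-Cre was 0.87 (adjusted p = 8.57e-05).

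On the probe sets used, the 3 sulfatases showed smaller changes. Galns, which removes sulfate from keratan and chondroitin sulfate, shared the pattern of Man2b1. Galns read 8.35, 8.29 and 8.47 in wt, 8.38, 8.28 and 8.48 in RIP-Cre, 8.32, 8.51 and 8.35 in Men1 RIP-Cre islets, 8.53, 8.68, 8.59 and 8.60 in Rbp2 RIP-Cre and 8.85, 8.91, 8.88 and 8.96 in the double mutant. The 4 double mutant arrays lay above the other 13, and the Rbp2 RIP-Cre arrays lay above both controls and all Men1 RIP-Cre arrays. Galns rose by 0.52 (SE 0.08, adjusted p = 0.00114) in the double mutant against RIP-Cre and by 0.51 (SE 0.08, adjusted p = 0.00286) against Men1 RIP-Cre. Its difference between Rbp2 RIP-Cre and RIP-Cre was 0.22 (SE 0.08, adjusted p = 0.0693) as deposited and 0.27 (adjusted p = 0.0317) after loess. Arsa, which acts on sulfatide, rose by 0.28 (SE 0.08, adjusted p = 0.00978) in Men1 RIP-Cre islets and 0.21 (SE 0.08, adjusted p = 0.0441) in the double mutant, with 0.07 in Rbp2 RIP-Cre. Arsb, which acts on dermatan sulfate, is the one member with a second probe set, and its probe sets disagreed. The brighter one, used here, gave 0.29 in Men1 RIP-Cre and 0.29 in the double mutant, neither called, and the other gave 1.42 (adjusted p = 0.00151) and 1.24 (adjusted p = 0.00463).

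All 6 lipid enzymes and lipid carriers were higher in Men1 RIP-Cre and in the double mutant, and 5 in Rbp2 RIP-Cre. Ppt1, which removes palmitate from proteins, had the lowest adjusted p of the members in Men1 RIP-Cre. Ppt1 read 8.85, 8.89 and 8.74 in wt and 8.93, 8.60 and 8.45 in RIP-Cre. Ppt1 in the knockouts read 10.18, 9.85 and 9.97 in Men1 RIP-Cre islets, 9.58, 9.19, 8.95 and 9.12 in Rbp2 RIP-Cre and 9.37, 10, 9.40 and 9.57 in the double mutant. No knockout array overlapped a control, though Rbp2 RIP-Cre 3 only just exceeded RIP-Cre 1. Ppt1 rose by 1.34 (SE 0.18, adjusted p = 0.000131), 0.55 (SE 0.16, adjusted p = 0.0405) and 0.93 (SE 0.16, adjusted p = 0.00231), and it kept its call in Men1 RIP-Cre with the array median held fixed, at 0.91 (adjusted p = 0.0420).

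Smpd1, the acid sphingomyelinase, and Asah1, the acid ceramidase, act in that order in the breakdown of sphingomyelin. Asah1 read 10.14, 10.48 and 10.08 in wt, 10.38, 10.38 and 9.87 in RIP-Cre, 11.07, 11.25 and 10.92 in Men1 RIP-Cre islets, 10.91, 10.79, 10.79 and 10.69 in Rbp2 RIP-Cre and 10.39, 11.13, 10.44 and 10.92 in the double mutant. Smpd1 read 9.42, 10.03 and 9.39 in wt, 9.66, 9.59 and 9.38 in RIP-Cre, 10.43, 10.37 and 10.68 in Men1 RIP-Cre islets, 10.32, 10.06, 10.17 and 9.93 in Rbp2 RIP-Cre and 9.87, 10.59, 9.90 and 10.37 in the double mutant. In both genes the Men1 RIP-Cre arrays were above all controls, and double mutants 1 and 3 lay within the range of wt. Asah1 rose by 0.87 (SE 0.19, adjusted p = 0.00225), 0.59 (SE 0.17, adjusted p = 0.0396) and 0.51 (SE 0.17, adjusted p = 0.0344). Smpd1 rose by 0.95 (SE 0.19, adjusted p = 0.00176), 0.58 (SE 0.18, adjusted p = 0.0469) and 0.64 (SE 0.18, adjusted p = 0.0165). Lipa, the acid lipase of cholesteryl esters and triglycerides, rose by 0.82 (SE 0.16, adjusted p = 0.00141) in Men1 RIP-Cre islets and 0.54 (SE 0.15, adjusted p = 0.0143) in the double mutant, and its difference of 0.34 (SE 0.15, adjusted p = 0.113) in Rbp2 RIP-Cre was not called.

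Npc2, the soluble cholesterol carrier that works with Npc1, read 9.72, 9.88 and 9.56 in wt, 9.91, 9.73 and 9.66 in RIP-Cre, 10.24, 10.27 and 10.25 in Men1 RIP-Cre islets, 10.34, 10.09, 10.05 and 10.19 in Rbp2 RIP-Cre and 10.22, 10.25, 9.96 and 10.25 in the double mutant. Every knockout array lay above every control. Npc2 rose by 0.49 (SE 0.11, adjusted p = 0.00316), 0.40 (SE 0.10, adjusted p = 0.0266) and 0.40 (SE 0.10, adjusted p = 0.0108). Psap, the precursor of the saposins that help degrade sphingolipids, read 12.14, 12.27 and 11.75 in wt, 12.18, 12.12 and 11.99 in RIP-Cre, 12.80, 12.76 and 12.80 in Men1 RIP-Cre islets, 12.58, 12.56, 12.51 and 12.42 in Rbp2 RIP-Cre and 12.55, 12.75, 12.45 and 12.68 in the double mutant. It too showed no overlap of knockouts and controls. Psap rose by 0.69 (SE 0.12, adjusted p = 0.000668), 0.42 (SE 0.11, adjusted p = 0.0275) and 0.51 (SE 0.11, adjusted p = 0.00499), and after loess its difference was 0.28 (adjusted p = 0.0184) in Men1 RIP-Cre islets, 0.05 (adjusted p = 0.7) in Rbp2 RIP-Cre islets and 0.09 (adjusted p = 0.427) in the double mutant.

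The regulators moved in opposite directions. Tfeb, the transcription factor of lysosomal genes, read 8.96, 8.80 and 8.81 in wt and 8.89, 8.69 and 8.95 in RIP-Cre. Tfeb in the knockouts read 8.43, 8.51 and 8.36 in Men1 RIP-Cre islets, 8.53, 8.91, 8.67 and 8.73 in Rbp2 RIP-Cre and 8.67, 8.59, 8.53 and 8.43 in the double mutant. The Men1 RIP-Cre and double mutant arrays lay below all 6 controls, and the Rbp2 RIP-Cre arrays overlapped them. Tfeb changed by -0.41 (SE 0.11, adjusted p = 0.00607) in Men1 RIP-Cre islets and -0.29 (SE 0.10, adjusted p = 0.0357) in the double mutant, and its difference of -0.13 (SE 0.10, adjusted p = 0.316) in Rbp2 RIP-Cre was not called. Tfeb was thus the only member called lower in a comparison with RIP-Cre, while its protein acts largely through its place in the cell, which arrays do not measure. Grn, the precursor of the granulins, which reaches the lysosome bound to a sorting receptor or to prosaposin, read 10.16, 10.06 and 9.81 in wt, 10.19, 10.09 and 10.02 in RIP-Cre, 10.66, 10.70 and 10.73 in Men1 RIP-Cre islets, 10.59, 10.55, 10.57 and 10.62 in Rbp2 RIP-Cre and 10.68, 10.89, 10.54 and 10.75 in the double mutant. All its knockout arrays lay above all controls. Grn rose by 0.60 (SE 0.10, adjusted p = 0.000664), 0.48 (SE 0.10, adjusted p = 0.0124) and 0.62 (SE 0.10, adjusted p = 0.00114), and kept its call in the double mutant with the array median held fixed, at 0.55 (adjusted p = 0.0293).

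Across the 35 genes, 30 were called in at least 1 comparison of a knockout group with RIP-Cre. The other 5 (Mcoln1, Ctsh, Ctsz, Naglu and Arsb, the last on the probe set used here) were called in none. The share of all genes called in at least 1 was not counted, but in Men1 RIP-Cre alone 15.7% were higher and 37.8% lower. Of the 23 that rose in Men1 RIP-Cre islets, 18 also rose in Rbp2 RIP-Cre, and these comparisons share the same 3 RIP-Cre arrays. At most 6.7% of all genes can have risen in both, the share called higher in Rbp2 RIP-Cre. Lamp1, Gusb and Neu1 were called in Rbp2 RIP-Cre and not in Men1 RIP-Cre, and Ctsa, Man2b1 and Galns in the double mutant alone. A call in one group and not in another is no test of the difference, which was tested between the double and the single knockouts and not between Men1 RIP-Cre and Rbp2 RIP-Cre. Every array of the group lay above all RIP-Cre arrays for 26 members in Men1 RIP-Cre (18.7% of all genes), 24 in Rbp2 RIP-Cre islets (11.6%) and 24 in the double mutant (14.2%). Against all 6 controls, wt included, the numbers were 20 (15.8%), 19 (6.76%) and 15 (9.58%). All 11 knockout arrays lay above all 6 controls for 9 members, Lamp2, Npc1, Ctsd, Hexa, Gaa, Ppt1, Npc2, Psap and Grn (3.52% of all genes).

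Many members moved together from array to array as well as between groups. This was counted for the members alone, not for all genes or genes of like brightness. It is therefore not shown to be particular to the members. Their mean lay between 9.36 and 9.72 on the 6 control arrays and between 9.82 and 10.16 on the 11 knockout arrays, with no overlap. Within wt, wt 2 was the highest array for 24 of the 35 members and wt 3 the lowest for 28. Within RIP-Cre, RIP-Cre 1 was the highest for 24 and RIP-Cre 3 the lowest for 23. In the double mutant, repeat 2 was the highest for 22 members and the lowest for 0, and repeat 3 was the lowest for 22. The 3 Men1 RIP-Cre arrays, by contrast, had member means of 10.08, 10.07 and 10.10.

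Other measures moved with the member mean in part. The 3 controls with the highest array medians, wt 1 (8.10), wt 3 (8.09) and RIP-Cre 3 (8.16), had member means of 9.56, 9.36 and 9.43, and the other 3 controls, with medians of 7.97 to 8.03, had 9.50 to 9.72. Beta cell markers, 10 genes that include insulin and islet amyloid polypeptide, averaged 11.62 to 12.19 on the controls and 12.26 to 12.63 on the knockouts. Among the controls RIP-Cre 3 was the lowest and RIP-Cre 2 the highest in these markers. RIP-Cre 2 had a member mean of only 9.50, and the lowest member mean of the controls, 9.36, was on wt 3. Within wt the marker means were 11.99, 12.18 and 11.84 and the member means 9.56, 9.72 and 9.36, in the same order. Within the double mutant the marker means were 12.40, 12.56, 12.38 and 12.51. The member means there were 9.94, 10.16, 9.82 and 10.04, also in the same order. Within the other groups the orders differed. Of these 10 markers, 7 were higher in Men1 RIP-Cre islets, 3 in Rbp2 RIP-Cre islets and 7 in the double mutant, and 0 were lower, with medians of 0.74, 0.37 and 0.59. After loess 6, 1 and 3 were higher and 2, 0 and 3 lower, with medians of 0.35, 0.00 and 0.19. In whole islets a larger share of one cell type and more RNA per cell cannot be told apart, and the part of beta cell content in the lysosomal results was not tested. Without wt 1, wt 3 and RIP-Cre 3, 24 members were called in Men1 RIP-Cre islets, 9 in Rbp2 RIP-Cre islets and 16 in the double mutant, with medians of 0.49, 0.37 and 0.40. The shares of all genes called in that run were not counted.

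The bright members were also set beside genes of like brightness. The 19 members among the brightest 10% of genes had median log2 fold changes of 0.68 in Men1 RIP-Cre islets, 0.57 in Rbp2 RIP-Cre islets and 0.58 in the double mutant, where all genes of that brightness had 0.20, 0.18 and 0.21. Of the 19, 14 were called higher in Men1 RIP-Cre (40.7% of all genes of that brightness), 15 in Rbp2 RIP-Cre islets (25.7%) and 16 in the double mutant (39.8%). After loess the medians of the 19 were 0.43, 0.33 and 0.34, against -0.02, -0.01 and 0.00. Array brightness ranks probe sets and not transcript amounts, so this comparison removes only what follows brightness.

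**Figure D3:**
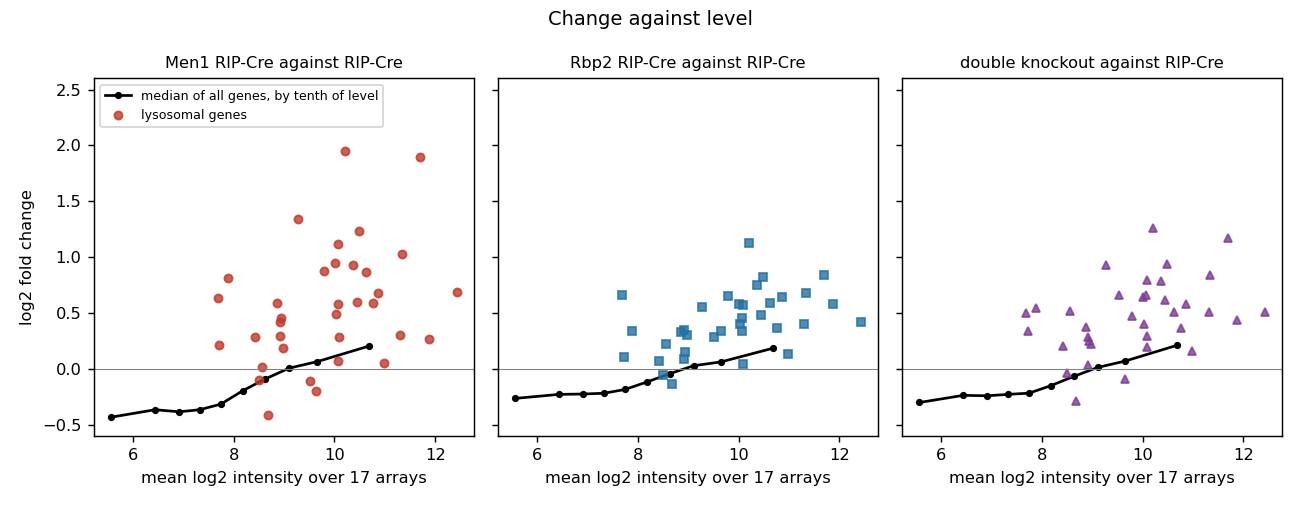
Log2 fold change against RIP-Cre (y axis) against the mean log2 intensity over 17 arrays (x axis) for the 35 lysosomal genes (coloured symbols) in Men1 RIP-Cre, Rbp2 RIP-Cre and the double mutant, with the median of all 19938 genes in 10 bins of brightness as a black line. The line rises from -0.43 to 0.20 in Men1 RIP-Cre, and most lysosomal genes lie above it in each panel.

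In the double mutant most members stood below the sum of the single changes. Of the 35 members, 30 (85.7%) were below the sum, where 32% of all genes and 69.2% of the brightest 10% were, with medians of 0.91 for the sum and 0.50 for the double mutant. Below the larger of their single changes were 26 members (74.3%), close to the 72.6% of all genes that were.  The interaction, which is the double mutant minus the sum of the single changes, was called lower for 13 members and higher for 0, where 1.61% of all genes were lower and 1.78% higher. Among the brightest 10% of genes the median interaction was -0.18 over all genes and -0.60 over the 19 members, and after loess 0.01 and -0.37. Cd63 and Cst3 had interactions of -1.82 (SE 0.39, adjusted p = 0.0370) and -1.57 (SE 0.37, adjusted p = 0.0420). Ctsb and Scarb2, with -1.12 (SE 0.27, adjusted p = 0.0420) and -1.06 (SE 0.22, adjusted p = 0.0347), followed. Lamp2 stood at -0.87 (SE 0.20), Npc1 at -0.55 (SE 0.14), Ctsd at -0.89 (SE 0.18) and Ctsl at -0.89 (SE 0.23). Among the enzymes of glycans and lipids, Hexa stood at -0.74 (SE 0.19), Gaa at -0.59 (SE 0.15), Asah1 at -0.95 (SE 0.25), Ppt1 at -0.97 (SE 0.23) and Psap at -0.60 (SE 0.16). Man2b1, at 0.49 (SE 0.17, adjusted p = 0.0707), lay above the sum and was not called.

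**Figure D4:**
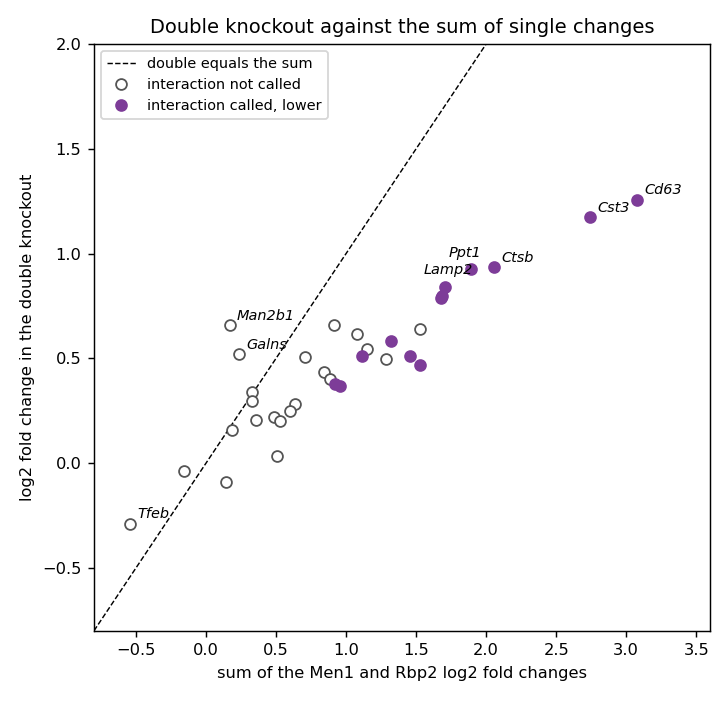
Log2 fold change in the double mutant (y axis) against the sum of the log2 fold changes in Men1 RIP-Cre and Rbp2 RIP-Cre (x axis), all against RIP-Cre, for the 35 lysosomal genes; the dashed line marks equality and filled symbols have a called interaction. The 13 filled symbols lie below the line, Cd63 at 1.26 against a sum of 3.08, while Man2b1 and Galns lie above it.

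These 13 calls were close to the threshold, with adjusted p between 0.0343 and 0.0489. After loess 9 members were called, 8 of the 13 and Gla, where 1.77% of all genes were lower and 0.757% higher, and with the array median held fixed 0 passed (0.0552% of all genes lower and 0.0451% higher; 14 members and 1516 genes at an unadjusted p under 0.05). There were 0 calls without RIP-Cre 3, without Men1 RIP-Cre 1 or 3, without Rbp2 RIP-Cre 1 or 2, or without double mutant 1 or 3, and 1 call without Men1 RIP-Cre 2, while the member median stayed between -0.53 and -0.41. The shares of all genes called without single arrays were not counted. Each of the 13 members kept its direction under every alternative run.

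Direct comparison of the double with the single knockouts gave few calls. Against Men1 RIP-Cre, 2 members were higher, Man2b1 and Galns, and 0 lower, where 1.1% of all genes were higher and 0.567% lower. Both calls held after loess (1.19% of all genes higher), with the array median held fixed (1.39%) and without each array in turn. The members with the largest rise in Men1 RIP-Cre were lower in the double mutant without passing the test: Cd63 differed by -0.70 (SE 0.27, adjusted p = 0.257), with an unadjusted 95% interval of -1.28 to -0.12, and Cst3 by -0.72 (SE 0.26, adjusted p = 0.210), with an unadjusted interval of -1.27 to -0.17. All double mutant arrays lay below all Men1 RIP-Cre arrays for these 2 genes and for Psap (3 of 35, where 6.15% of all genes did so). Against Rbp2 RIP-Cre 0 members were called by limma, where 0.582% of all genes were higher and 0.617% lower, and 6 members and 2309 genes had an unadjusted p under 0.05. Galns was closest, at 0.30 (SE 0.07, adjusted p = 0.0641), and was called after loess at 0.32 (adjusted p = 0.0207), where 0.943% of all genes were higher and 0.863% lower. With the array median held fixed Galns and Man2b1 were called, at 0.31 (adjusted p = 0.0159) and 0.35 (adjusted p = 0.0324), where 1.36% of all genes were higher and 1.19% lower.

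The transgene by itself gave no call among these genes. Between RIP-Cre and wt, limma called 0 of the 35 members and 0 of all genes (0%), and 1 member and 552 genes had an unadjusted p under 0.05. The median log2 difference of the members was -0.01, and the single differences ran from -0.32, for Cst3, to 0.15.

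Other genes of the lysosomal system were counted by lists, beside the shares of all genes given above. Of 17 measured subunits of the V-ATPase, the pump that acidifies lysosomes and insulin granules, 15 were higher in Men1 RIP-Cre islets, 14 in Rbp2 RIP-Cre islets and 15 in the double mutant, and 0 were lower, with medians of 0.67, 0.61 and 0.63. After loess 13, 13 and 14 were higher. Atp6v1c1 rose by 0.75 (SE 0.12, adjusted p = 0.00603) in Rbp2 RIP-Cre and 0.74 (SE 0.12, adjusted p = 0.00150) in the double mutant, Atp6v0d1 by 0.92 (SE 0.18, adjusted p = 0.0118) in Rbp2 RIP-Cre, and Atp6ap1, an accessory subunit, by 0.97 (SE 0.18, adjusted p = 0.000939) in Men1 RIP-Cre islets and 0.81 (SE 0.16, adjusted p = 0.0136) in Rbp2 RIP-Cre. Atp6v0b and Atp6v0e2, both of the membrane sector, rose by 0.67 (SE 0.12) and 0.59 (SE 0.11) in Men1 RIP-Cre and by 0.63 (SE 0.11) and 0.61 (SE 0.11) in the double mutant.

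Of 25 other lysosomal enzymes and their helpers, 15 were higher and 2 lower in Men1 RIP-Cre islets, 7 and 0 in Rbp2 RIP-Cre, and 11 and 2 in the double mutant, with medians of 0.46, 0.17 and 0.20. After loess 17, 5 and 12 were higher and 0 lower, with medians of 0.46, 0.25 and 0.31. Sumf1, the enzyme of the secretory pathway that activates the sulfatases, rose by 0.57 (SE 0.11, adjusted p = 0.00127), 1.07 (SE 0.10, adjusted p = 0.000108) and 1.13 (SE 0.10, adjusted p = 3.12e-05) in the 3 groups, and was higher in the double mutant than in Men1 RIP-Cre by 0.56 (SE 0.10, adjusted p = 0.00811). Ggh, the gamma-glutamyl hydrolase, rose by 1.15 (SE 0.17) in Men1 RIP-Cre and 0.98 (SE 0.16) in Rbp2 RIP-Cre. Ctsc, the dipeptidyl peptidase that activates granule proteases of immune cells, rose by 0.91 (SE 0.16) in Men1 RIP-Cre and 0.82 (SE 0.15) in the double mutant. Pla2g15 rose by 0.46 (SE 0.08) in Men1 RIP-Cre islets, Pcyox1 by 0.68 (SE 0.16) in Rbp2 RIP-Cre and Scpep1 by 0.70 (SE 0.14) in the double mutant. Ctsk, the collagenase of osteoclasts, was lower at -0.37 in Men1 RIP-Cre and -0.29 in the double mutant, Sgsh at -0.25 in Men1 RIP-Cre and Sumf2 at -0.26 in the double mutant, and none of these was called after loess.

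Of 21 other lysosomal membrane proteins, 11 were higher and 4 lower in Men1 RIP-Cre islets, 6 and 0 in Rbp2 RIP-Cre, and 9 and 2 in the double mutant. After loess 10, 5 and 8 were higher and 2, 0 and 3 lower. Laptm4a rose by 1.35 (SE 0.19, adjusted p = 0.000237), 0.96 (SE 0.18, adjusted p = 0.0110) and 1.12 (SE 0.18, adjusted p = 0.00152). Slc17a5, the sialic acid exporter, rose by 1.09 (SE 0.15) in Men1 RIP-Cre and 0.70 (SE 0.14) in the double mutant, Slc38a9, an amino acid sensor, by 0.99 (SE 0.13) in Men1 RIP-Cre, and Ctns, the cystine exporter, by 0.50 (SE 0.10) in the double mutant. Ostm1 and Glmp rose by 0.81 (SE 0.15) and 0.63 (SE 0.13) in Rbp2 RIP-Cre. The peptide transporter Abcb9 and the channel Tpcn1 were lower in Men1 RIP-Cre, at -0.57 (SE 0.11) and -0.49 (SE 0.12), as was Mcoln3 at -0.43 (SE 0.15), whose call did not hold after loess. Mcoln3 was higher in the double mutant than in Men1 RIP-Cre, by 0.82 (SE 0.14, adjusted p = 0.00562). Tpcn2 and Litaf were lower in the double mutant, at -0.40 (SE 0.12) and -0.30 (SE 0.11), and of these only Tpcn2 was called after loess.

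Of 28 genes that sort proteins to the lysosome, 11 were higher and 1 lower in Men1 RIP-Cre islets, 8 and 0 in Rbp2 RIP-Cre, and 12 and 1 in the double mutant, with medians of 0.19, 0.19 and 0.13. After loess 9, 5 and 7 were higher and 5, 0 and 5 lower, with medians of 0.10, 0.11 and 0.04. Vps35, a core subunit of retromer, rose by 1.25 (SE 0.18, adjusted p = 0.000269), 0.94 (SE 0.17, adjusted p = 0.00942) and 0.90 (SE 0.17, adjusted p = 0.00309), and Vps29, another, by 0.71 (SE 0.14) in the double mutant. Igf2r, the large mannose-6-phosphate receptor, and Vps11 each rose in Rbp2 RIP-Cre, by 0.40 (SE 0.08) and 0.40 (SE 0.09), and Sort1, which encodes sortilin, by 0.68 (SE 0.14) in Men1 RIP-Cre. The adaptor Gga2 rose by 0.47 (SE 0.09) in Men1 RIP-Cre and 0.47 (SE 0.09) in the double mutant, while Gga1 was lower at -0.30 (SE 0.09) in Men1 RIP-Cre and Ap3b1 at -0.22 (SE 0.07) in the double mutant.

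Genes of autophagy and of the control of Tfeb were mixed. Of 32, 9 were higher and 4 lower in Men1 RIP-Cre islets, 8 and 0 in Rbp2 RIP-Cre, and 11 and 0 in the double mutant, with medians of 0.01, 0.14 and 0.12. After loess 6, 5 and 7 were higher and 6, 1 and 4 lower. Gabarapl2, a ubiquitin-like protein of autophagosomes, rose by 1.40 (SE 0.23, adjusted p = 0.000473), 1.08 (SE 0.21, adjusted p = 0.0123) and 1.25 (SE 0.21, adjusted p = 0.00183). Gabarapl1 and Lamtor3, the latter part of the Ragulator complex on the lysosome, rose by 0.84 (SE 0.15) and 0.89 (SE 0.17) in Men1 RIP-Cre and by 0.72 (SE 0.14) and 0.83 (SE 0.16) in the double mutant. Lamtor5 and Wipi2 rose by 0.71 (SE 0.15) and 0.55 (SE 0.12) in Rbp2 RIP-Cre. Tfe3, a close relative of Tfeb, was lower in Men1 RIP-Cre at -0.30 (SE 0.08, adjusted p = 0.0100), as were Atg16l1 at -0.30 (SE 0.09) and Wipi1 at -0.34 (SE 0.10).

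**Figure D5:**
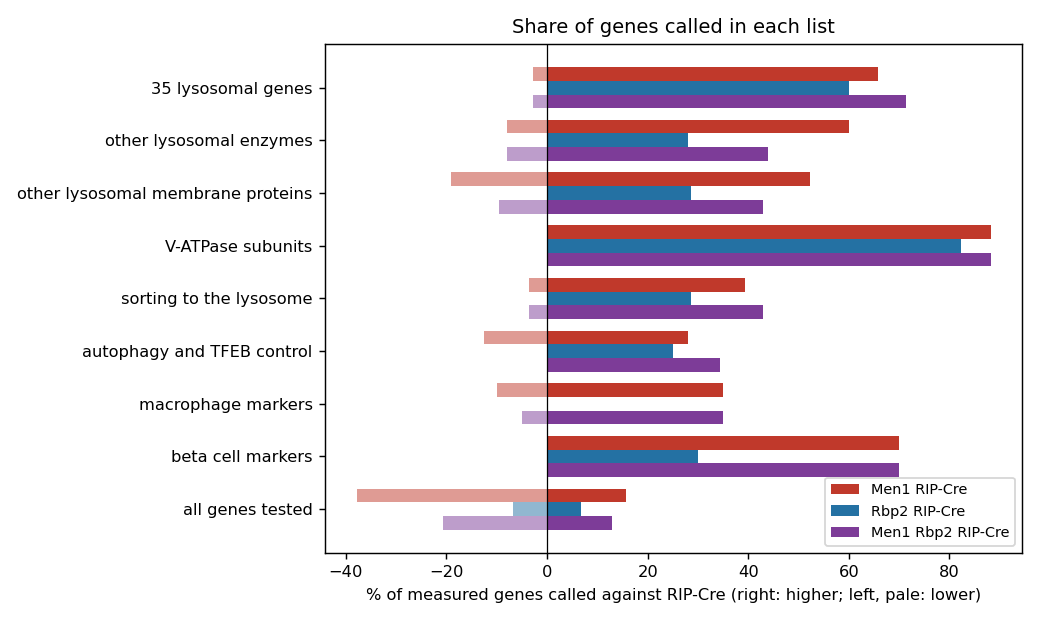
Share of the measured genes of each list (y axis) called higher (to the right) or lower (to the left, pale) against RIP-Cre, in % (x axis), in Men1 RIP-Cre, Rbp2 RIP-Cre and the double mutant, with all genes tested at the bottom. V-ATPase subunits have the longest bars to the right in all 3 groups, and all genes tested have 15.7%, 6.7% and 13%.

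Macrophages are rich in lysosomes, and their markers moved in part with the same groups. Of 20 measured macrophage markers, 7 were higher and 2 lower in Men1 RIP-Cre islets, 0 and 0 in Rbp2 RIP-Cre, and 7 and 1 in the double mutant, with medians of 0.28, 0.02 and 0.27. After loess 12, 1 and 11 were higher and 0 lower, with medians of 0.52, 0.18 and 0.43. Mpeg1 rose by 1.10 (SE 0.17) and 0.75 (SE 0.16) in Men1 RIP-Cre and the double mutant, and Ctss, itself a lysosomal protease, by 0.64 (SE 0.15) and 0.71 (SE 0.14). C1qc rose by 0.47 (SE 0.12) in Men1 RIP-Cre and C1qb by 0.80 (SE 0.15) in the double mutant, whereas Cd163 was lower at -0.51 (SE 0.14) and -0.47 (SE 0.13) and Mrc1 at -0.55 (SE 0.18) in Men1 RIP-Cre. None of these 3 lower calls held after loess, with adjusted p of 0.420 and 0.153 for Cd163 and 0.289 for Mrc1 (limma). The array mean of the 20 markers ran from 7.50 to 8.04 in wt, 7.48 to 7.58 in RIP-Cre, 7.72 to 7.94 in Men1 RIP-Cre, 7.51 to 7.60 in Rbp2 RIP-Cre and 7.70 to 8.06 in the double mutant, and no marker was at 0. With this mean held fixed, an alternative added after seeing the data, 23 members were called in Men1 RIP-Cre (21 higher) and 20 in Rbp2 RIP-Cre. In the double mutant 17 were called (16 higher), and 9 in the interaction. The share of all genes called in this fit was not counted. Lyz1 ran from 6.84 to 10.23 and Lyz2 from 7.02 to 9.90 over the arrays, and both sway the mean. Holding the mean fixed is therefore not the same as holding macrophage content fixed.

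In Men1 RIP-Cre, Rbp2 RIP-Cre and the double mutant, 6, 0 and 4 of 6 Schwann cell markers were lower, as were 3, 0 and 3 of 6 markers of alpha and delta cells. Of 12 endothelial markers 1, 3 and 1 were higher and 5, 0 and 4 lower, and of 8 duct markers 0, 1 and 0 were higher and 4, 1 and 2 lower. Over all genes 15.7%, 6.7% and 13% were higher and 37.8%, 6.7% and 20.6% lower. Mesenchymal markers (12) had 1, 2 and 1 higher and 1, 0 and 1 lower, lymphocyte markers (11) had 1, 0 and 1 higher and 2, 0 and 0 lower, and acinar markers (14) had 0 higher and 1, 0 and 0 lower. After loess 4, 0 and 4 Schwann cell markers, 5, 0 and 5 alpha and delta cell markers, 0, 0 and 1 duct markers and 4, 0 and 4 endothelial markers were lower, and 0 mesenchymal, lymphocyte and acinar markers were. Higher after loess were 0, 2 and 0 endothelial, 1, 2 and 1 mesenchymal and 2, 0 and 1 lymphocyte markers, and 0 of the duct, Schwann, alpha and delta and acinar markers. Over all genes after loess 18.4%, 5.61% and 13.9% were higher and 16%, 3.81% and 11.4% lower. The part of these cell types in the lysosomal results was not tested.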

How the data were processed

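Total RNA of isolated islets, treated with DNase, was labelled with biotin and hybridised to Affymetrix whole-transcript arrays, per the labels' protocols. The log2 intensities were deposited by the authors, 1 value per probe set. Which software and normalization made them is not given in the sources used here, and scanner files were not analysed here. Of 35512 probe sets, 21789 name 1 gene, 1621 several and 12102 none in the annotation used. The brightest probe set of each gene gave 19938 genes, with no filter on low values. No 2 arrays were copies (smallest root mean square difference 0.357).

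Groups came from the sample titles. Group means of all 17 arrays were fitted with limma 3.58.1 (R 4.3.3), and p-values were adjusted by Benjamini-Hochberg over all 19938 genes within a comparison, with a call at 0.05. The fit was tested on simulated data. Arrays have no depth, so their number limits the precision. Alternatives were cyclic loess, quantile normalization, the array median as a covariate, other filters, controls and variances, the repeat number as a block, and leaving out arrays. The control wt in place of RIP-Cre, the pooled control in the interaction, and the macrophage covariate were chosen after seeing the data.

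The members and lists were chosen with earlier results of these data known. All 35 members are named. Array values are printed for the members called in both single knockouts or in the interaction, and for Lamp1, Neu1, Man2b1, Galns and Tfeb, chosen after their values were seen. From each other list, called genes were named where their moderated t was among the top 3 or bottom 3 of a comparison with RIP-Cre, and comparisons of Sumf1 and Mcoln3 between knockouts were added after their values were seen. Sequences are RefSeq's, build GRCm38.p6.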

Additional observations from a re-analysis of the deposited data

Results flagged for a closer look

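In 3 of the 70 groups of 4 arrays (35 members in each of the Rbp2 RIP-Cre and double mutant groups), 1 array stood apart from the others by more than Dixon's 95% critical value, and chance alone flags about 1 group in 20. Scarb2 read 9.87 on Rbp2 RIP-Cre 4, where the other 3 arrays read 10.07 to 10.11. Neu1 read 9.90 on double mutant 3, where the others read 10.20 to 10.23, and Npc2 read 9.96 on the same array, where the others read 10.22 to 10.25. Double mutant 3 was the lowest of its group for 22 of the 35 members.

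The change that goes with Rbp2 loss was called different between islets that keep Men1 and islets that lack it for 13 members. The test was that of the interaction (adjusted p from limma between 0.0343 and 0.0489). Over all genes 1.61% were called lower and 1.78% higher. Among the brightest 10% of genes the median interaction over all genes was -0.18. With the array median held fixed 0 members were called. The difference, Rbp2 effect among Men1 knockouts minus Rbp2 effect against RIP-Cre, was -1.82 for Cd63, -1.57 for Cst3, -1.12 for Ctsb, -1.06 for Scarb2 and -0.97 for Ppt1 on the log2 scale. It was -0.95 for Asah1, -0.89 for Ctsd, -0.89 for Ctsl, -0.87 for Lamp2 and -0.74 for Hexa. For Psap it was -0.60, for Gaa -0.59 and for Npc1 -0.55. None of the 13 kept its call when each array was left out in turn, 0 being called without RIP-Cre 3, Men1 RIP-Cre 1 or 3, Rbp2 RIP-Cre 1 or 2, or double mutant 1 or 3. The shares of all genes called in those runs were not counted.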

How the results depend on the processing

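The counts that follow are members called in either direction, with Tfeb included: 24 in Men1 RIP-Cre islets, 21 in Rbp2 RIP-Cre, 26 in the double mutant, 2 in the double mutant against Men1 RIP-Cre, 0 in the double mutant against Rbp2 RIP-Cre and 13 in the interaction. Every called member kept its direction under all alternatives. With the array median as a covariate the counts were 1, 0, 2, 2, 2 and 0. Without wt 1, wt 3 and RIP-Cre 3 together, 9 were called in Rbp2 RIP-Cre, 16 in the double mutant and 1 in the interaction. With the macrophage mean as a covariate 17 were called in the double mutant. The double mutant against Rbp2 RIP-Cre gave 1 call under cyclic loess, quantile normalization, a filter at the 25th percentile of brightness, and trended, robust variances. The interaction gave 7 calls with quantile normalization and 7 with wt as the control. In this section, the share of all genes called was counted only for cyclic loess and the array median as a covariate, as given above. The other counts therefore cannot show whether the members changed more than genes in general. The cause of these changes was not tested.

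Leaving out each array in turn gave 23 to 24 calls in Men1 RIP-Cre islets, 2 to 19 in Rbp2 RIP-Cre (2 without RIP-Cre 3, 4 without Rbp2 RIP-Cre 1, 11 without Rbp2 RIP-Cre 2), 14 to 29 in the double mutant (14 without RIP-Cre 3, 17 without double mutant 2 or 4), 2 to 2 in the double mutant against Men1 RIP-Cre, 0 to 1 against Rbp2 RIP-Cre (1 without Rbp2 RIP-Cre 1) and 0 to 17 in the interaction.

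Repeat numbers were not taken to pair the samples in the main fit, though some arrays with the same number resembled each other. Of 31 pairs of arrays with the same number 10 had a correlation of deviations over 0.1 (range -0.30 to 0.45). Of 17 arrays, 8 correlated best with their own number. Of the pairs of repeat 3, the 6 without Men1 RIP-Cre lay at 0.22 to 0.45 and the 4 with it at -0.06 to 0.08. The arrays wt 3, RIP-Cre 3 and double mutant 3 were the lowest of their groups for 28, 23 and 22 members. Rbp2 RIP-Cre 3 and Men1 RIP-Cre 3 were so for 11 and 5. The titles name no batch, and whether repeat 3 shared one was not tested. With the repeat number as a block the counts were 24, 18, 25, 2, 0 and 17.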
